A study of Mus musculus with 56 samples.

Results

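The gene table of this mouse liver series held 25415 rows, of which 1147 (4.51%) carried no Ensembl identifier and were named only by a locus number with the prefix XLOC. Numbers of this form are given by transcript assemblers of the Cufflinks family to the loci that they build or merge from reads, and the prefix does not by itself say that a locus lies outside annotated genes. These assembled loci were chosen solely by their names, so that their levels, rhythms and responses to feeding time were all free to be measured. The remaining 24268 rows carried Ensembl identifiers and served as the comparison.

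The livers came from 56 female C57BL/6J mice, 9 weeks of age, kept under 12 h of light and 12 h of darkness. For the last 7 days food was offered only in the daytime (DRF) or only in the nighttime (NRF), and NRF, in which mice eat in their active phase, was the reference. Each regimen gave 4 livers at each of 7 zeitgeber times (ZT, counted in hours from lights on), every 4 h from ZT0 to ZT24, which makes 14 groups. No group carried a transgene, a mutation or a drug, and all the mice shared strain, sex and age.

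Loci assembled from liver RNA beyond the annotated genes commonly come from long noncoding RNAs, transcribed enhancers, antisense transcripts and extended ends of known genes. The libraries were made by removal of ribosomal RNA, a workflow that also keeps transcripts without a poly(A) tail, although the molecule label reads polyA RNA. Many liver genes rise and fall once a day, driven by the circadian clock, in which BMAL1 (encoded by Arntl) and CLOCK switch on Per and Cry genes, whose proteins repress them in turn, and by the rhythm of feeding itself. Meal time is a strong time cue for the liver clock and can move it away from the light cycle.

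The deposited table gave no position, strand, sequence or name for an assembled locus. Where each one lies in the genome, whether it overlaps a gene, and its sequence are therefore not given here. The deposited values proved to be a compressed logarithmic transform of counts divided by a length, and undoing the transform returned whole numbers of counts. Among held-out Ensembl values of up to 100 counts, 97.5% came out within 0.05 of a whole number, where 10% would by chance. The assembled loci came out whole when a length of exactly 1000 was used: 1145 of the 1147 did so within 0.05, and the other 2, the deeply covered XLOC_043452 and XLOC_078586, within a tolerance of 0.2. The same divisor for every locus means that the deposited values of the loci carried no correction for their true lengths, and levels of different loci below are counts, not levels per length. Only 260 of the Ensembl rows were rebuilt with that divisor.

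All values below are scaled counts, meaning recovered counts brought to a common size of about 1000000 per library. A scaled count of 1 corresponded to 304 to 723 recovered counts. The recovered totals lay far above the sequencing depth described for the study, and among loci with 5 to 20 recovered counts in a group the variance between animals was 7.87 times the mean (median), and a recovered count was not taken as an independent read. For this reason errors are given as the spread between animals, and no counting intervals are given. Replicates of a group correlated over the loci with r of 0.78 to 0.954 on the log2 scale, and no libraries shared identical values. Hepatocyte marker genes (Alb, Apoa1, Ttr, Serpina1a and Cyp2e1) summed to 83953 to 145089 scaled counts. Markers of the other liver cells were present too, 4 of each, with sums of 478 to 975 for Kupffer cells, 606 to 882 for stellate cells, 253 to 385 for sinusoidal endothelium and 3.61 to 10.5 for cholangiocytes. Blood cell markers varied most of the larger sums, from 336 to 1245 under DRF and from 265 to 767 under NRF, and their part in the results below was not tested. Of 4 pancreatic acinar markers none had a row, and of 4 adipose markers only Cfd had one, at 0 to 0.0657.

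The assembled loci were low. Their median level over all libraries was 0.0678 scaled counts, or 34.8 recovered counts per library, compared with 1.75 scaled counts for the Ensembl rows. Only 62 of the 1147 loci (5.41%) averaged at least 1 scaled count, against 56.3% of the Ensembl rows. Together the loci made up 0.0356% to 0.089% of the scaled counts of a library but 0.983% to 1.56% of the sum of its deposited values, in which the log transform compresses the highest genes most. The 0.089% came from NRF ZT16 replicate 3, where XLOC_122345 alone held 49.4% of the summed level of the loci. The next highest library, NRF ZT4 replicate 1, stood at 0.0677%. The 2 highest loci held 27.5% of the summed level of all loci and the 10 highest held 44.8%.

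Detection was patchy. Between 781 and 989 of the 1147 loci were above 0 in a single library, 401 (35.0%) were above 0 in all 56 libraries, and 950 (82.8%) in at least 28. The Ensembl rows were above 0 in all libraries in 81.3% of cases. Every row of the table, assembled or not, exceeded a deposited value of 1 in at least 12 libraries, and 214 of the loci (18.7%) did so in no more than 20, compared with 5.60% of the Ensembl rows. A locus that was low on average thus entered the table only if some libraries were high, and the counts of changed loci below are of loci that met this condition.

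**Figure D1:**
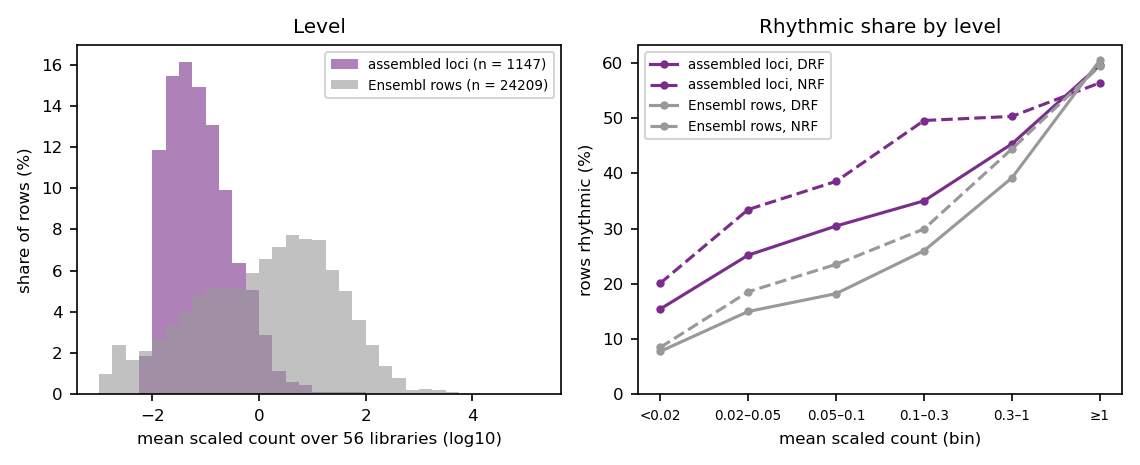
The left panel shows the distribution of the mean scaled count over 56 libraries (log10 axis) as a share of the 1147 assembled loci and of the 24209 Ensembl rows tested. The right panel shows the share of rows called rhythmic under DRF (solid lines) or NRF (dashed lines) in 6 bins of mean scaled count. The loci sit to the left of the Ensembl rows, with medians of 0.0678 and 1.75, and the rhythmic share rises with level in both.

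A set of 6 libraries stood apart for these loci, by a cut at 20% that was placed after seeing the data. In NRF ZT0 replicate 1, NRF ZT4 replicate 1, NRF ZT16 replicate 1, NRF ZT20 replicate 1, NRF ZT24 replicate 4 and DRF ZT24 replicate 2, between 21.7% and 31.2% of the 950 loci with a median above 0 exceeded 2 times their own median over all libraries. The other 50 libraries ranged from 7.58% to 18.7%. The cut itself keeps these ranges of the loci from overlapping, and the highest of the 50 lay close below it. Low Ensembl rows, those averaging under 0.3 scaled counts, exceeded 2 times their median in 18.8% to 27.6% of cases in the same 6 libraries and in 6.13% to 20.6% in the others, whereas Ensembl rows at or above 0.3 did so in 2.08% to 3.16% and 0.902% to 3.12%. Of these libraries 5 were NRF. Counts without the 6 libraries are given in the account of each comparison below.

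The highest loci differed in how steady they were. XLOC_078586 was the most abundant by counts, at 96.9 ± 13.5 scaled counts under DRF and 82.3 ± 18.3 under NRF (SD, n = 28 each). Its DRF libraries spanned 64.7 to 122 around a median of 95.9 and its NRF libraries 38.2 to 125 around 85.6. It peaked at ZT19.1 ± 0.58 h (SE) under DRF and at ZT23.2 ± 1.02 h under NRF, a shift of 4.10 ± 1.17 h. The swing was modest: under NRF it went from 38.2, 61.4, 64.5 and 74.8 at ZT8 to 92.9, 95.9, 96.1 and 107 at ZT24, without overlap. Here and below, the high and low groups of a locus are those with its highest and lowest mean within a regimen. Groups picked in this way tend not to overlap, so a lack of overlap adds no separate support for a rhythm.

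XLOC_043452, the second most abundant, swung more. Under DRF the 4 livers at ZT0 held 14.4, 18.4, 22.9 and 24.7 scaled counts, and those at ZT16 held 52.0, 54.9, 58.9 and 59.4. At ZT24, the same clock time as ZT0, the DRF livers held 35.1, 36.2, 36.7 and 38.1, wholly above those at ZT0. Under NRF the lowest group was ZT12, at 7.39, 10.5, 14.9 and 18.6, and the highest was ZT20, at 31.3, 44.8, 52.9 and 64.1. The high and low groups did not overlap in either regimen, and the peak moved from ZT22.5 ± 0.60 h under NRF to ZT15.6 ± 0.40 h under DRF. This 6.97 ± 0.72 h shift lay between the classes defined below, and its rhythm differed between regimens (limma, adjusted p = 5.67e-10).

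XLOC_083587 was high but variable, at 19.2 ± 8.37 under DRF and 19.6 ± 9.14 under NRF (SD, n = 28 each). It was called rhythmic under NRF (adjusted p = 0.0216) and not under DRF (adjusted p = 1), yet its high and low groups overlapped in both regimens and the difference in rhythm did not pass (limma, adjusted p = 0.341). XLOC_054226 ran between 8.98 and 18.9 under DRF and 5.79 and 19.2 under NRF, and was called rhythmic in both (adjusted p = 0.0159 and 2.53e-05). Its highest group moved from NRF ZT16 (16.6 ± 2.27, SD, n = 4) to DRF ZT0 (17.1 ± 1.77), with a difference in rhythm at an adjusted p of 0.00209 by limma. At DRF ZT24, the same clock time as ZT0, it read 13.2 ± 3.38. The fitted peak lay at ZT14.3 ± 0.87 h (SE) under NRF and at ZT21.2 ± 1.32 h under DRF.

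XLOC_132985 was rhythmic under DRF (adjusted p = 8.68e-09) and missed the threshold under NRF (adjusted p = 0.0987). Under DRF its 4 livers read 14.1, 16.6, 17.2 and 17.2 scaled counts at ZT0 and 3.63, 3.73, 3.82 and 5.80 at ZT16. Under NRF the range was narrower, from 4.36, 4.77, 5.88 and 5.95 at ZT0 to 7.41, 8.45, 11.2 and 11.5 at ZT12, and the NRF livers at ZT24, between 7.03 and 8.82, lay above those at ZT0. The amplitude was 5.40 ± 0.83 (SE) under DRF and 1.27 ± 0.51 under NRF, and the test of the difference in rhythm gave an adjusted p of 5.35e-07 (limma).

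Daily rhythms were then asked for in each regimen, with a 24-h rank test and a cosine fit joined into 1 p-value and adjusted over all 25356 rows tested. Under DRF 354 of the 1147 loci (30.9%) were rhythmic at an adjusted p under 0.05, beside 43.3% of all rows. Under NRF 445 loci (38.8%) were rhythmic, beside 44.6% of all rows. Loci rhythmic in both regimens, the dual-oscillating loci, numbered 220 (19.2%), beside 27.2% of all rows. Joining tests on the same values as if they were independent makes the p-values too small, so each is also given alone: the cosine fit called 283 loci under DRF, 363 under NRF and 166 in both, and the rank test 233, 321 and 140. Shares over all rows are not given for either test alone. Without the 6 libraries that stood apart the joined test called 355, 391 and 199.

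Rhythmic shares followed the level. Among loci averaging at least 1 scaled count, 59.7% were rhythmic under DRF and 56.5% under NRF, where Ensembl rows of the same level gave 60.6% and 59.5%. Loci averaging 0.1 to 0.3 scaled counts were rhythmic in 35.0% and 49.6% of cases, and Ensembl rows of that level in 26.0% and 29.9%. Below 0.02 scaled counts the shares were 15.4% and 20.1% for the loci and 7.73% and 8.45% for the Ensembl rows. In these low bins the loci and the Ensembl rows also differed in detection (0% and 20.1% above 0 in every library below 0.02), and the part that the table's filter and the uniform length play in the gap was not tested.

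Peak times spread around the day. Of the 445 loci rhythmic under NRF, 97 peaked between ZT0 and ZT4 (21.8%) and 104 between ZT4 and ZT8 (23.4%), and the fewest, 31 (6.97%), between ZT12 and ZT16. Rhythmic Ensembl rows under NRF peaked most often between ZT4 and ZT8 (28.3%) and only in 10.6% of cases between ZT0 and ZT4. Their fewest peaks also lay between ZT12 and ZT16 (10.1%). Under DRF the loci were more even than under NRF, from 42 peaks between ZT12 and ZT16 (11.9%) to 74 between ZT20 and ZT24 (20.9%). Rhythmic Ensembl rows under DRF ranged from 12.6% between ZT8 and ZT12 to 26.5% between ZT4 and ZT8.

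**Figure D2:**
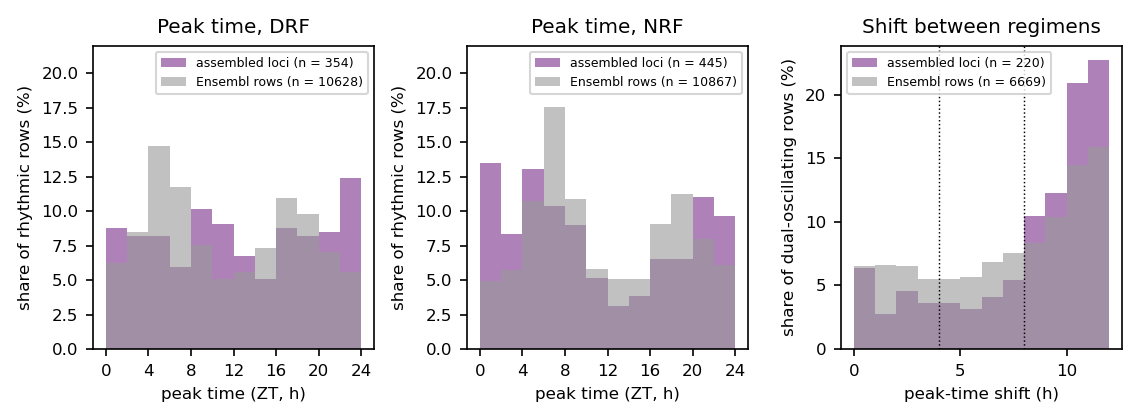
The first and second panels show the peak time (ZT, h) of rows rhythmic under DRF (354 loci, 10628 Ensembl rows) and NRF (445 and 10867), in 2-h bins as a share of the rhythmic rows. The third panel shows the shift of the peak between regimens for the 220 dual-oscillating loci and 6669 Ensembl rows in 1-h bins, with dotted lines at 4 and 8 h. The loci pile up above 8 h, where 66.4% of them lie.

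Feeding in the daytime moved most of the dual-oscillating loci to the opposite side of the day. Of the 220, 146 (66.4%) shifted by 8 to 12 h and are called phase-inverted, 38 (17.3%) shifted by 0 to 4 h and are called phase-locked, and 36 fell in between. The median shift was 9.42 h. Among the 6669 dual-oscillating Ensembl rows 49.0% were phase-inverted and 25.3% phase-locked, with a median shift of 7.89 h. Loci averaging under 0.3 scaled counts were inverted in 112 of 150 cases (74.7%) and those at or above 0.3 in 34 of 70 (48.6%), where the Ensembl rows gave 47.1% and 49.2%. The inverted share of the loci was 66.8% without the 6 libraries that stood apart. Loci share libraries and may share transcripts, so these shares are descriptions without a test.

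For scale, the clock genes moved in the same way. Of 19 clock and clock-output genes, 18 were dual-oscillating, their median shift was 11.0 h, and 17 of them fell in the phase-inverted class. Arntl peaked at ZT22.7 ± 0.17 h (SE) under NRF and at ZT12.1 ± 0.28 h under DRF. Dbp, a transcription factor gene directly driven by the clock, peaked at ZT10.2 ± 0.47 h and ZT24.0 ± 0.48 h. Per2, a repressor of the clock, moved from ZT16.1 ± 0.23 h to ZT3.97 ± 0.53 h, and Nr1d1, which encodes the repressor REV-ERBα, from ZT7.48 ± 0.36 h to ZT20.6 ± 0.57 h.

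The most strongly rhythmic of the inverted loci was XLOC_039213. Under NRF its 4 livers at ZT24 held 0.879, 0.885, 0.955 and 1.23 scaled counts, and those at ZT12 held 0, 0.0057, 0.00848 and 0.0131. Under DRF the order turned over, with 0.0141, 0.0225, 0.0469 and 0.0473 at ZT0 and 0.387, 0.428, 0.496 and 0.609 at ZT12. No liver of a high group overlapped one of a low group. The peak lay at ZT22.9 ± 0.29 h (SE) under NRF and at ZT10.4 ± 0.39 h under DRF, a shift of 11.5 ± 0.49 h. The adjusted p of the rhythm was 8.02e-19 and 4.12e-15 by the joined test. The larger adjusted p of both regimens was 6.11e-08 by the cosine fit alone and 2.09e-07 by the rank test alone. Its mean was also lower under DRF, at 0.193 ± 0.167 against 0.477 ± 0.362 (SD, n = 28 each, limma adjusted p = 2.62e-07 for the rhythm-adjusted mean).

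XLOC_143868 followed a like course at a slightly higher level. It read 0.722, 0.841, 1.03 and 1.19 scaled counts at NRF ZT24 and 0.0784, 0.101, 0.131 and 0.148 at NRF ZT12. Under DRF it read 0.131, 0.175, 0.181 and 0.242 at ZT0 and 0.641, 0.677, 0.818 and 0.926 at ZT12. The groups did not overlap, and the 11.0 ± 0.61 h shift carried the peak from ZT0.54 ± 0.41 h under NRF to ZT11.5 ± 0.45 h under DRF. Unlike XLOC_039213, its rhythm-adjusted mean did not differ by the test (log2 difference -0.03 ± 0.03, SE, limma adjusted p = 0.586).

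XLOC_043107 was nearly absent at its troughs. Of the 4 livers at NRF ZT12, 3 were at 0 and 1 at 0.00707, and at DRF ZT0 3 were at 0 and 1 at 0.0102. At its peaks it read 0.0591, 0.0622, 0.133 and 0.160 under NRF (ZT0) and 0.0378, 0.0655, 0.0796 and 0.0840 under DRF (ZT12). Its shift was 11.3 ± 0.73 h (SE), with 18.9 recovered counts per library on average.

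The remaining inverted loci named by their p-values ran in the other direction, high in the middle to late light phase under NRF. XLOC_060977 read 0.345, 0.437, 0.462 and 0.631 scaled counts at NRF ZT8 and 0.0342, 0.0716, 0.133 and 0.148 at NRF ZT0. Under DRF it was highest at ZT24, at 0.485, 0.523, 0.560 and 0.697, and lowest at ZT12, at 0.0402, 0.0644, 0.121 and 0.173. The high groups lay wholly above the low ones, and the peak went from ZT9.48 ± 0.46 h (SE) under NRF to ZT22.9 ± 0.61 h under DRF.

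XLOC_146036 was at 0 in all 4 livers at NRF ZT20 and in 3 of 4 at DRF ZT8, the fourth reading 0.0368. It reached 0.369, 0.588, 0.667 and 0.768 scaled counts at NRF ZT8 and 0.446, 0.678, 0.732 and 0.933 at DRF ZT24. Its peaks lay at ZT7.93 ± 0.54 h (SE) under NRF and ZT22.2 ± 0.63 h under DRF, and it was above 0 in 42 of the 56 libraries. All 146 phase-inverted loci also passed the limma test of a difference in rhythm between regimens described below. So did 3265 of the 3270 phase-inverted Ensembl rows. Rows chosen as rhythmic in both regimens with peaks at least 8 h apart could hardly fail it, so it adds no separate support.

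**Figure D3:**
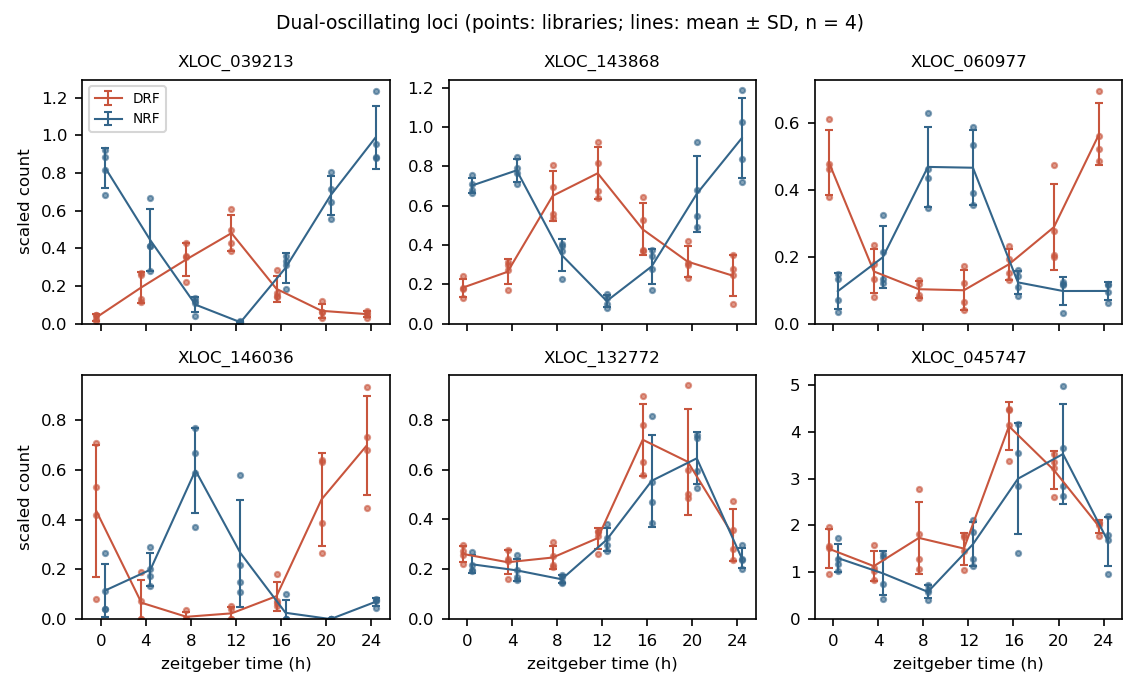
Scaled counts of 6 dual-oscillating loci against zeitgeber time (h) under DRF (red) and NRF (blue), with points for single libraries and lines for the mean ± SD of 4 livers. The curves of XLOC_039213, XLOC_143868, XLOC_060977 and XLOC_146036 mirror each other between regimens, shifted by 9.75 to 11.5 h, while those of XLOC_132772 and XLOC_045747 run together, shifted by under 1 h.

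The phase-locked loci kept their time of day. XLOC_132772 peaked at ZT17.5 ± 0.43 h (SE) under NRF and ZT17.3 ± 0.48 h under DRF, a shift of 0.16 ± 0.65 h. Its livers read 0.525, 0.593, 0.726 and 0.737 scaled counts at NRF ZT20 against 0.144, 0.150, 0.169 and 0.177 at NRF ZT8, and 0.577, 0.629, 0.780 and 0.895 at DRF ZT16 against 0.161, 0.233, 0.243 and 0.276 at DRF ZT4. Neither its rhythm (limma, adjusted p = 0.982) nor its mean (adjusted p = 0.217) differed by the tests, and none of the 7 times passed.

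XLOC_162995 shifted by 0.76 ± 0.64 h (SE) and was higher under DRF in its mean (log2 difference 0.14 ± 0.04, limma adjusted p = 0.00799). It read 0.879, 0.988, 1.13 and 1.27 at DRF ZT16 and 0.645, 0.686, 0.799 and 0.851 at NRF ZT20, its highest groups. XLOC_045747, at 1.99 scaled counts on average, shifted by 0.75 ± 0.71 h. It rose from 0.397, 0.578, 0.611 and 0.739 at NRF ZT8 to 2.63, 2.84, 3.65 and 4.99 at NRF ZT20, and from 0.830, 1.02, 1.08 and 1.59 at DRF ZT4 to 3.38, 4.15, 4.46 and 4.49 at DRF ZT16. Under both regimens these loci were high in the dark phase. Of the 38 phase-locked loci, 4 passed the test of a difference in rhythm, beside 357 of 1685 phase-locked Ensembl rows. Of the 36 loci in between, 35 did, beside 1610 of 1714 Ensembl rows.

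Whether a rhythm differed between regimens was tested for each row by limma, on log2(scaled count + 1), through the regimen-by-cosine and regimen-by-sine terms. The rhythm differed for 405 of the 1147 loci (35.3%), beside 38.7% of all rows, and for 388 without the 6 libraries that stood apart. Of the 134 loci called rhythmic under DRF and not NRF, 53 passed this test, and of the 225 called rhythmic under NRF and not DRF, 139 did. For the rest a loss or gain of rhythm between regimens was not shown, and no shares over all rows are given for these subsets.

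The 3 loci with the smallest p-values not described above were also inverted. XLOC_006283 was uniform among animals at DRF ZT16, where its 4 livers read 1.63, 1.63, 1.64 and 1.66 scaled counts, against 0.537, 0.616, 0.628 and 0.641 at DRF ZT0. The DRF livers at ZT24, between 0.842 and 1.06, lay above those at ZT0. Under NRF it read 1.72, 2.14, 2.14 and 3.01 at ZT24 and 0.399, 0.405, 0.481 and 0.533 at ZT12 (limma, adjusted p = 3.06e-15 for the difference in rhythm). Its groups differed at 6 of the 7 times by the limma contrasts.

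XLOC_019939 moved its peak from ZT23.5 ± 0.77 h (SE) under NRF to ZT12.0 ± 0.36 h under DRF, with 0.453, 0.578, 0.581 and 0.773 scaled counts at DRF ZT12 and 0.0161, 0.0510, 0.0582 and 0.0594 at DRF ZT0. At NRF ZT24 its livers read 0.713, 0.777, 0.923 and 2.21, and the last of these was NRF ZT24 replicate 4, a library that stood apart. The difference in rhythm had an adjusted p of 4.87e-14 with all libraries and of 8.81e-17 without the 6 (limma). XLOC_081862 read 1.03, 1.11, 1.83 and 2.01 at NRF ZT24 and 0.0056, 0.0232, 0.0456 and 0.0467 at NRF ZT12, and its peak went from ZT21.2 ± 0.51 h to ZT8.74 ± 0.64 h under DRF.

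The mean level over the day, taken as the regimen term of the same model, differed for fewer loci. It passed for 66 of the 1147 (5.75%), beside 6.72% of all rows. Of the 66 loci, 19 were higher and 47 lower under DRF, beside 4.05% of all rows higher and 2.67% lower, so that the loci leaned to NRF while the rows as a whole leaned to DRF. The split of the loci depended on the scale. On the deposited values 32 loci passed, 16 higher and 16 lower. With 0.01 in place of the 1 added before the log, 50 passed, 20 higher and 30 lower. Without the 6 libraries 46 passed, 14 higher and 32 lower. Shares over all rows are not given for these alternatives, so they describe the split of the loci and not its distance from all rows. Of the 66, 45 also differed in rhythm, a count given without its share over all rows. The log2(scaled count + 1) scale understates the change of low loci, so levels are given beside each difference.

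Among loci higher under DRF, the log2 difference was 0.45 ± 0.10 for XLOC_043452 (SE, limma adjusted p = 0.00228), whose DRF libraries had a median of 37.4 scaled counts and NRF libraries 30.4. For XLOC_030681 it was 0.36 ± 0.08 (adjusted p = 0.00147). The order of these loci depended on the scale, since with a pseudocount of 0.1 the log2 difference was 0.96 for XLOC_030681 and 0.47 for XLOC_043452, and on deposited values 1.47 and 0.15. Its DRF libraries ran from 0.163 to 3.33 around a median of 0.718 and its NRF libraries from 0 to 1.37 around 0.344, and 22 of 28 DRF libraries exceeded the NRF median. XLOC_078586 differed by 0.29 ± 0.06 (adjusted p = 0.00115).

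XLOC_106755 differed by 0.27 ± 0.06 (SE, limma adjusted p = 0.00163), with DRF libraries between 0.756 and 3.91 around a median of 2.0 and NRF libraries between 0.923 and 2.57 around 1.46. At ZT0 the DRF livers read 2.85, 2.92, 3.67 and 3.91 and the NRF livers 1.25, 1.40, 1.66 and 1.85, without overlap. At ZT24, the same clock time, the DRF livers read 1.94, 1.97, 2.51 and 2.64, wholly below those at ZT0, and overlapped the NRF livers, which read 1.03, 1.07, 1.49 and 2.25. Of the 28 DRF libraries, 24 exceeded the NRF median.

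Among the loci lower under DRF, XLOC_157539 differed by -0.73 ± 0.13 (SE, limma adjusted p = 0.000145), with DRF libraries from 0.0785 to 4.87 around a median of 1.12 scaled counts and NRF libraries from 0.724 to 17.3 around 2.57. It was also phase-inverted, with 2.25, 4.08, 9.63 and 17.3 at NRF ZT24, the most scattered group, and 1.83, 1.89, 3.68 and 4.87 at DRF ZT12. The adjusted p without the 6 libraries was 0.000491.

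XLOC_150101 differed by -0.50 ± 0.08 (SE, limma adjusted p = 1.37e-05). Only 2 of 28 DRF libraries exceeded its NRF median of 0.725, the DRF median being 0.120. Under NRF it surged at ZT4, to 1.82, 1.97, 2.38 and 5.05, from 0.116, 0.131, 0.241 and 0.270 at ZT16. Under DRF its highest group, ZT8, held 0.202, 0.204, 0.302 and 1.25, a group carried by 1 liver.

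XLOC_130726 differed by -0.41 ± 0.10 (SE, limma adjusted p = 0.00791) without a rhythm in either regimen (adjusted p = 0.684 under DRF and 0.223 under NRF). Its libraries ran from 0.217 to 4.39 around 0.891 under DRF and from 0.681 to 4.96 around 1.43 under NRF, and the highest library of each regimen (DRF ZT24 replicate 2 and NRF ZT20 replicate 1) was among those that stood apart. Without the 6 libraries its adjusted p was 0.00468. XLOC_002100 differed by -0.41 ± 0.08 (adjusted p = 0.000467), with medians of 0.267 under DRF and 0.657 under NRF, and 1 of 28 DRF libraries exceeded the NRF median.

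**Figure D4:**
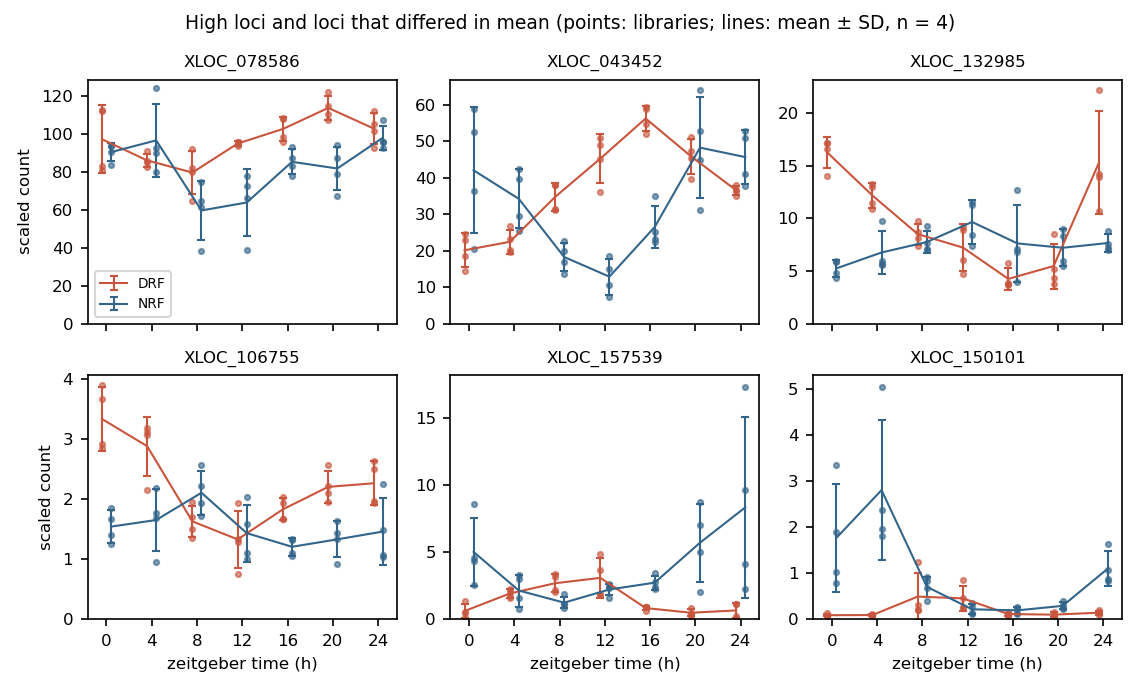
Scaled counts of 6 loci against zeitgeber time (h) under DRF (red) and NRF (blue), with points for single libraries and lines for the mean ± SD of 4 livers. XLOC_078586, XLOC_043452 and XLOC_106755 had higher rhythm-adjusted means under DRF, XLOC_157539 and XLOC_150101 lower ones, and XLOC_132985, whose mean did not pass, swung more widely under DRF.

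Compared time by time, 411 of the 1147 loci (35.8%) differed between regimens in a limma test over all 7 times, beside 42.4% of all rows, and 381 did so without the 6 libraries. At single times the loci called numbered 174 at ZT0, beside 15.9% of all rows, 155 at ZT4, beside 20.3%, and 109 at ZT8, beside 12.9%. They numbered 118 at ZT12, beside 15.1% of all rows, 93 at ZT16, beside 15.1%, 118 at ZT20, beside 13.7%, and 153 at ZT24, beside 14%. As shares of the loci these were 15.2%, 13.5%, 9.50%, 10.3%, 8.11%, 10.3% and 13.3%. Of the loci, 62 were called at 4 or more single times, and 10 at 6, the most for any locus. No share over all rows stands beside these counts, so they describe the loci only.

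The direction was most uneven at ZT4, in the light phase. Of the 155 loci called there, 126 were lower under DRF and 29 higher, that is 81.3% lower. All rows called at ZT4 were lower in 47.1% of cases. The 126 loci were 11.0% of the loci tested, beside 9.56% of all rows called lower at ZT4. The 29 called higher, of 1147 loci, stood beside 2724 of 25356 rows. The uneven direction thus lay mainly in the few loci called higher. NRF ZT4 replicate 1 stood apart in the direction of high loci, and without the 6 libraries 129 loci were called, 100 lower and 29 higher. NRF ZT4 replicate 4 stayed in. Of its loci 18.7% exceeded 2 times their own median, the highest share among the libraries kept. On deposited values the numbers were 99 lower and 29 higher.

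At ZT20 78 loci were lower and 40 higher under DRF (66.1% lower, beside 44.1% of all rows called). At ZT16 40 were lower and 53 higher (43.0% lower, beside 42.3%). At ZT0 97 were lower and 77 higher (55.7% lower, beside 50.3% of all rows called), and at ZT24 84 and 69 (54.9%, beside 49.6%). At ZT8 58 were lower and 51 higher (53.21% lower, beside 56.04% of all rows called). At ZT12 66 were lower and 52 higher (55.93% lower, beside 53.31%). The loci thus leaned to lower less than all rows called at ZT8 and slightly more at ZT12. The splits of the loci turned on deposited values, to 27 lower and 44 higher at ZT8 and 50 lower and 73 higher at ZT12. With a pseudocount of 0.01 they also turned, to 43 lower and 53 higher at ZT8 and 64 and 72 at ZT12. At ZT24 the deposited values gave 68 lower and 44 higher. Without the 6 libraries the counts were 157 (ZT0), 130 (ZT8), 140 (ZT12), 82 (ZT16), 94 (ZT20) and 126 loci (ZT24). Leaving out NRF ZT20 replicate 1 alone brought the ZT20 count from 118 to 77.

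**Figure D5:**
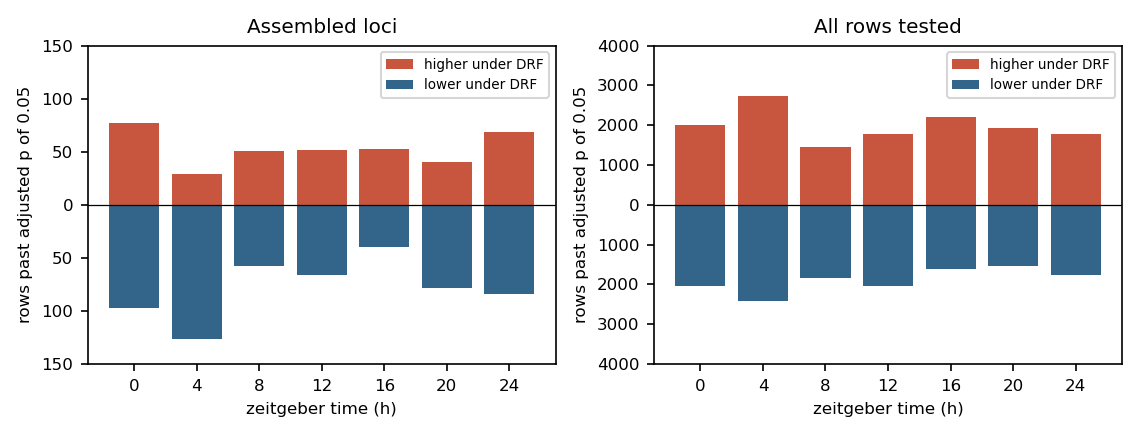
Number of assembled loci (left) and of all rows tested (right) that were higher (red, upward) or lower (blue, downward) under DRF than NRF at each zeitgeber time, at an adjusted p under 0.05 by limma. At ZT4 126 loci were lower and 29 higher, or 81.3% lower, while 47.1% of all rows called at that time were lower.

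ZT24 and ZT0 are the same clock time in different mice, so this comparison sets mice of 1 clock time against each other. Under DRF 22 loci (1.92%) differed, 16 higher and 6 lower at ZT24, beside 3.07% of all rows, and under NRF 15 loci (1.31%) differed, 9 higher and 6 lower, beside 7.83% of all rows. Without the 6 libraries that stood apart the counts were 31 and 11. Both counts were unstable. The DRF count was 8 without DRF ZT0 replicate 3, 13 without DRF ZT0 replicate 4, 10 without DRF ZT24 replicate 1 and 35 without DRF ZT0 replicate 1. The NRF count was 7 without NRF ZT0 replicate 2 and 6 without NRF ZT24 replicate 4.

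Of the 1147 loci, 498 passed none of these tests of rhythm, rhythm difference, mean or times, and the share over all rows is not given. Within groups the coefficient of variation between animals was 66.2% for the median locus (quartiles 41.2% and 113%), which limits what 4 animals per group could show for the low loci.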

How the data were processed

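Total RNA from 56 livers was sequenced by the authors as ribosome-depleted, strand-specific, 150 bp paired-end libraries. The submitters' processing notes name CASAVA 1.8, featureCounts 1.5.0-p3 and the builds mm10 and GRCm38.p6, with no roles, and the assembler is not given in the sources used here. The deposited gene values are named TPM by the authors but were treated as a score, since each equals a library constant times ln(1 + a factor times a whole count), divided by a length and rescaled. Both constants were fitted per library with GENCODE M21 exon lengths, and the transform was undone. Of the Ensembl rows, 59 gave no usable count and were set aside, which leaves 25356 rows tested. A filter at a mean deposited value of 0.1 removed 0 rows. No column of per-sample values was left unused (0), and the transcript and circular RNA tables were not used.

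Rhythm was tested per regimen by a Kendall rank test against 12 cosine templates and a cosinor F test, joined by Fisher's method. Other comparisons used limma 3.58.1 with an intensity trend on log2(scaled count + 1), and p-values were adjusted by Benjamini-Hochberg over all rows. Replicates are separate mice. Scripts were tested on simulated data. Named loci were, by rule, the 5 with the highest mean deposited value, the 5 phase-inverted and 3 phase-locked with the smallest p-values, the 4 highest and 4 lowest differences in mean, and the 3 smallest p-values for a rhythm difference. The members, lists and alternatives were chosen with earlier results of these data known.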

Additional observations from a re-analysis of the deposited data

Results flagged for a closer look

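In the groups of 4 whose values are given above and in the summed measures, 116 groups were searched for a single library whose gap to its nearest neighbour exceeded Dixon's 95% critical value as a share of the group's range, which chance exceeds in about 1 of 20 groups, and 12 did so. XLOC_054226 read 13 scaled counts in DRF ZT12 replicate 2, where the other livers ran from 9.95 to 10.4. XLOC_132985 read 5.80 in DRF ZT16 replicate 3, the others lying between 3.63 and 3.82. XLOC_043107 was detected in 1 liver each of DRF ZT0 (0.0102, replicate 2) and NRF ZT12 (0.00707, replicate 1), and XLOC_146036 in 1 liver of DRF ZT8 (0.0368, replicate 2). In these groups the other livers all read 0, so the gap was the whole range. Such groups are flagged whatever the value, and the chance rate does not apply to them. XLOC_150101 read 0.122 in DRF ZT0 replicate 4, against 0.0693 to 0.0758, and 1.25 in DRF ZT8 replicate 2, against 0.202 to 0.302. XLOC_130726 read 4.39 in DRF ZT24 replicate 2, against 0.964 to 1.47, and XLOC_019939 read 2.21 in NRF ZT24 replicate 4, against 0.713 to 0.923, both libraries being among the 6 that stood apart.

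The summed level of all loci other than XLOC_078586 and XLOC_043452 was 338.1 scaled counts in DRF ZT12 replicate 1, against 273 to 276 in its group, and 356.0 in DRF ZT20 replicate 2, against 290 to 301. In DRF ZT0 replicate 3, 901 loci were above 0, against 926 to 928. The response to time of day differed between the regimens, by the test of the difference itself, for 405 loci, as described above.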

How the results depend on the processing

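Total counts of loci stayed within 1.5 times the reported value under the alternatives run, apart from those given here, while counts in 1 direction moved further in places. With the rank test alone 233 loci were rhythmic under DRF and 140 in both regimens. On deposited values 32 loci differed in mean, 71 at ZT8, 35 between ZT24 and ZT0 under DRF (33 higher, 2 lower) and 31 under NRF (25 higher, 6 lower), and at ZT16 the split was 60 higher and 29 lower. The loci higher in mean numbered 12 without ZT24, and those lower in mean 30 with a pseudocount of 0.01. The NRF count for ZT24 against ZT0 was 9 with a pseudocount of 0.1 (4 higher, 5 lower) and 6 with 0.01 (4 higher, 2 lower), and with 0.01 the DRF count held 17 higher and 3 lower. The pseudocount of 0.01 and the removal of 6 libraries were chosen after seeing the data. The cause of these changes was not tested. Leaving out 1 library at a time gave 330 to 360 rhythmic loci under DRF, 415 to 454 under NRF and 209 to 225 in both, inverted shares of 63.1% to 68.5% and locked shares of 15.4% to 19.7%. It gave 390 to 415 loci that differed in rhythm, 51 to 76 in mean and 390 to 427 over all times. At single times it gave 136 to 179 (ZT0), 119 to 165 (ZT4), 76 to 116 (ZT8), 83 to 123 (ZT12), 65 to 113 (ZT16), 77 to 124 (ZT20) and 132 to 157 (ZT24), and for ZT24 against ZT0 8 to 35 under DRF and 6 to 22 under NRF. None of the 8 named differences in mean, 8 named shifts or 3 named rhythm differences lost its call or changed sign under an alternative that tested it. Of the 66 calls in mean, 29 were kept on deposited values and 40 without the 6 libraries.

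Same-numbered replicates of different groups deviated together with a median r of 0.0187 (over 0.1 in 26.4% of 364 pairs), so the numbers were not taken as pairs. With the replicate number as a block (replicate block), 366 loci were rhythmic under DRF, 483 under NRF and 227 in both, and 409 differed in rhythm, 68 in mean and 413 over all times. Low levels and unknown locus lengths limit all comparisons between loci.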

Other observations

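A single locus dominated 1 library. XLOC_122345 read 445 scaled counts in NRF ZT16 replicate 3, which was 49.4% of the summed level of all loci there, while its next highest library held 3.82 and its median was 0.820. It raised the mean summed level of the loci other than the 2 highest at NRF ZT16 to 440 ± 239 (SD, n = 4), whereas the other 13 groups had means between 281 and 362. That library also had the smallest total of recovered counts and the fewest loci above 0, 781.

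Assembled loci with consecutive numbers formed 22 pairs. Their levels over the 56 libraries correlated with a median Spearman rho of 0.244, and 3 pairs exceeded 0.5 (13.6%), whereas all 657231 pairs of loci had a median of 0.0235 and exceeded 0.5 in 0.872% of cases. The highest was XLOC_002100 with XLOC_002101, at 0.875, and 0.832 after the group means were removed. The points of each correlation share libraries and depth, consecutive numbers were not checked against positions, and these pairs were picked after their values were seen.

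The 260 Ensembl rows rebuilt with the same uniform length of 1000 were rhythmic in 32.7% of cases under DRF and 39.6% under NRF. Of their 51 dual-oscillating rows 43.1% were phase-inverted and 35.3% phase-locked, with a median shift of 6.74 h.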
